A study of Mus musculus with 8 samples.

Results

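The collagen chain genes are the genes that encode the polypeptide chains of the collagens. They were taken from the count table of mouse left ventricle as every gene whose symbol is Col, a number, the letter a and a second number, and whose raw counts summed to at least 20 over the 8 libraries. Of 41128 genes in the table, 44 carried such a symbol and 40 of these reached the sum. They comprised 9 fibrillar, 6 basement membrane and 3 network chains, with 5 beaded filament, 8 fibril-associated, 2 multiplexin and 4 transmembrane chains and 3 remaining chains among the other types. The lowest members were Col24a1, with 27 reads in all, and Col19a1, with 30. The highest of the genes left out was Col11a1, with 17 reads, followed by Col2a1 with 5, Col6a4 with 1 and Col9a1 with 0. Of the 40 members, 35 had enough counts for the test between groups. Col9a2, Col9a3, Col19a1, Col24a1 and Col28a1 did not.

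The 8 libraries came from the left ventricle of 8 FVB mice aged 8 to 12 weeks, 4 of them wild-type and 4 of them RE1-deficient littermates labelled as homozygous. RE1 belongs to a super enhancer, a stretch of DNA in which many regulatory elements lie close together, that the series studies for its control of Nppa and Nppb, the genes of the atrial and B-type natriuretic peptides. The mice of both groups shared strain, age range and tissue. The labels also name Myh6-MerCreMer, nTnG and Sun1/sfGFP lines and do not say that any of these 8 mice carried them. Replicates are separate mice. The question for the collagen chains is whether their RNA differed between ventricles with and without RE1.

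Collagens are trimers of chains that wind into a triple helix, and the chains that a cell makes decide which trimers it can build. Fibrillar collagens form the cables that give the heart wall its tensile strength, and type IV collagen forms the sheet-like network of basement membranes around cardiomyocytes and capillaries. In the heart fibroblasts are the main source of fibrillar collagen, and endothelial cells are among the sources of type IV collagen.

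The 6 type IV genes lie in 3 pairs whose members start next to each other on opposite strands, a layout known for this family. On GRCm38 the annotated starts of Col4a1 and Col4a2 were 21 bases apart on chromosome 8, with the ends of the gene models overlapping. Those of Col4a3 and Col4a4 were 72 bases apart on chromosome 1, and those of Col4a5 and Col4a6 were 1309 bases apart on chromosome X. The start regions of the most abundant pair and of the pair with the smallest p-values are shown because the values below are read pair by pair. Each is 250 bases before to 50 bases after a RefSeq start on GRCm38.p6, 5′ to 3′ on the strand of its gene, with matches to the CCAAT box (CCAAT) and the GC box (GGGCGG), on either strand, in capitals. The motifs do not overlap each other in these windows.
Col4a1, chr8:11312777-11313076, minus strand: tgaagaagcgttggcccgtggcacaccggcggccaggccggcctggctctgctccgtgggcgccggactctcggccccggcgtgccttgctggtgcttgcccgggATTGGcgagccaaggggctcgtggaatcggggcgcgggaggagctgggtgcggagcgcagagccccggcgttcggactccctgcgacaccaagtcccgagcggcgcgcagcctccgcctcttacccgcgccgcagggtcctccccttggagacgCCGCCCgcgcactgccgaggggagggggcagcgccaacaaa
Col4a2, chr8:11312555-11312854, plus strand: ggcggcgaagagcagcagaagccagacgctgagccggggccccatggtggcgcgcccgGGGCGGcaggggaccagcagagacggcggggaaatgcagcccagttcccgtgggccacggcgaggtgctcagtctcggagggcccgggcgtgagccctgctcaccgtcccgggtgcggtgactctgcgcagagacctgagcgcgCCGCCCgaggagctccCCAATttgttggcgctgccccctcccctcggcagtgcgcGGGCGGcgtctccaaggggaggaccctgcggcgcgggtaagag
Col4a5, chrX:141475169-141475468, plus strand: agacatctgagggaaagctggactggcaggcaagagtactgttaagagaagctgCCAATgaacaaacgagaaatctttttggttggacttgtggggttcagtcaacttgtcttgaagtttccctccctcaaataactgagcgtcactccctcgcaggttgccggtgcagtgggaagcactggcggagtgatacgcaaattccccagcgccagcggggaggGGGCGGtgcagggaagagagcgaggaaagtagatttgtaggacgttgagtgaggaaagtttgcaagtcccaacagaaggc
Col4a6, chrX:141474027-141474326, minus strand: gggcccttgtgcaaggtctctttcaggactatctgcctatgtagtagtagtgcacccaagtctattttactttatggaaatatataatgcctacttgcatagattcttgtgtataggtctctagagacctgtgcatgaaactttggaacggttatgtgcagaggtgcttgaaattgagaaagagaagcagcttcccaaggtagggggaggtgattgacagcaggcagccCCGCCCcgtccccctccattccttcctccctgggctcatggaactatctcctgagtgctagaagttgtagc
The windows of Col4a1 and Col4a2 shared 78 bases, read from opposite strands. Both were rich in G and C, at 74.0% and 73.7%, against 52.7% for Col4a5 and 48.3% for Col4a6 and a median of 52.7% over all promoters. The Col4a2 window held 3 GC boxes and the others 1 each. The box of Col4a1 lies in the shared bases and is the same site as the last box of Col4a2. Of 32851 promoter windows of this length, 37.4% held a CCAAT box and 35.7% a GC box, so a match is common. The TATA box (TATAAA) was in 13.6% of all windows and in none of these 4 on either strand. A RefSeq window was on hand for 32 of the 40 members.

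Total counts per library ran from 16778368 to 37133306. Reads of Nppb numbered 1875 to 4266 in wild-types and 1 to 16 in knockouts, and those of Nppa 246 to 640 and 4 to 14, so each library matched its label. Knockout replicates 2 and 4 stood apart from the rest in mitochondrial rRNA, at 6.40% and 6.19% of counts against 8.51% to 10.5% in the other 6 libraries. A chi-square statistic per gene between these 2 libraries was 3.54, and it was 3.14 between knockout replicates 1 and 3, but 14.2 to 16.1 between the pairs. Between wild-type libraries it ran from 4.96 to 13.0. The statistic includes the mitochondrial rRNA genes, so it is not separate from the split in that RNA. The part of this split in the collagen values was not tested. The tissue label matched the markers, with cardiomyocyte marker genes summing to 2781180 to 3032720 normalized counts per library.

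Left ventricle held RNA of nearly every collagen type, and a few chains made up most of it. Collagen chain genes took 0.161% to 0.215% of all counts. Levels of different genes are compared as normalized counts per kb of the gene's longest principal transcript, where normalized counts are the authors' counts divided by a size factor per library. Col4a1, the α1 chain of basement membrane collagen, had the highest level, at 2013 ± 242 (SD, n = 4) in the wild-type group and 2190 ± 111 (SD, n = 4) in the knockouts. In each library it held 23.5% to 26.0% of the summed per-length level of all members. It was followed by Col3a1, the chain of type III fibrils, with a mean over all 8 libraries of 1279, and by Col4a2, the usual partner of Col4a1, with 1247. Col1a2, the α2 chain of type I collagen, stood at 691, Col6a1 of the beaded filaments at 529 and Col15a1, a basement membrane associated multiplexin, at 486. Neighbours in this order were close: Col3a1 lay between 983 and 1550 per kb across the wild-type libraries and Col4a2 between 1070 and 1335, so their order is not settled by these data. With the length of all annotated exons in place of the transcript, Col4a2 ranked above Col3a1 and Col1a2 moved from rank 4 to rank 6.

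**Figure D1:**
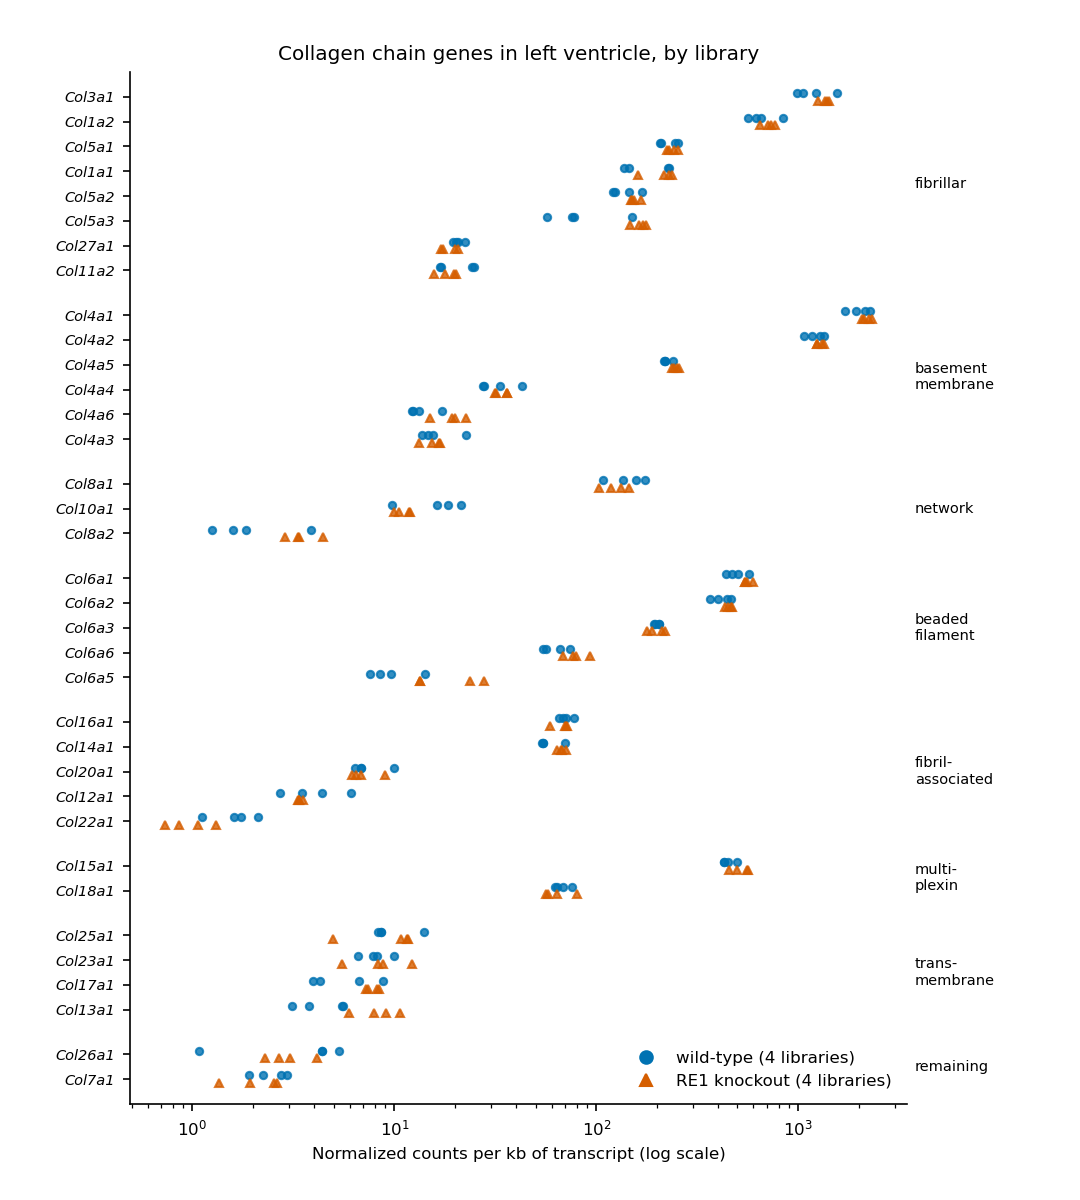
Level of the 35 tested collagen chain genes in each of the 8 libraries, as normalized counts per kb of transcript on a log scale, grouped by collagen type. Circles are wild-type and triangles RE1 knockout libraries, and the order within a type is by mean level. Mean levels span from 2101 for Col4a1 to 1.31 for Col22a1, and the libraries of both groups lie over each other for most genes.

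By type, basement membrane chains took 41.1% to 45.0% of the per-length collagen level in a library and fibrillar chains 29.7% to 34.8%. The other types took 21.9% to 24.8%, and network chains 1.33% to 2.54%. The groups overlapped in each of these shares. The shares rest on transcript length and would differ with the length of all annotated exons. With that length the mean level of Col3a1 was 725 in place of 1279 and that of Col1a2 298 in place of 691. That of Col4a1 was 1862 in place of 2101. The summed normalized counts of all members were 42675, 54134, 45686 and 52544 in the wild-type libraries 1 to 4 and 53447, 54936, 52972 and 51894 in knockout replicates 1 to 4. Wild-type replicates 1 and 3 were low and the other 6 libraries lay close together, so the groups overlapped.

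No collagen chain gene changed past the threshold between knockout and wild-type ventricles. With edgeR's quasi-likelihood test, 0 of 35 had an adjusted p under 0.05, against 1.06% of all 16551 genes tested (0.375% higher and 0.689% lower). At an unadjusted p under 0.05 there were 10 of 35 members, 9 of them higher and 1 lower in the knockouts, against 13.0% of all genes (6.11% higher and 6.90% lower). DESeq2 called 0 members and limma-voom 1, Col5a3. Of 29 members with an adjusted p in the authors' deposited table, 0 were under 0.05, the smallest being 0.095 for Col4a6, while 1.69% of all genes there were under it. The log2 fold change, knockout over wild-type, was positive for 21 members and negative for 14, with a median of 0.08, against a median of 0.00011 over all genes tested, of which 8283 were positive and 8268 negative. The members' median was 0.02 without wild-type replicate 1, 0.05 without replicate 3, 0.15 without replicate 2 and 0.13 without replicate 4. In 1 member, Col13a1, the normalized counts of the groups did not overlap, against 7.23% of all genes (3.38% higher and 3.85% lower). Without any filter on low counts edgeR called 4 members, Col6a1, Col15a1, Col4a6 and Col6a6, all higher in the knockouts, and 643 genes in all in place of 176.

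**Figure D2:**
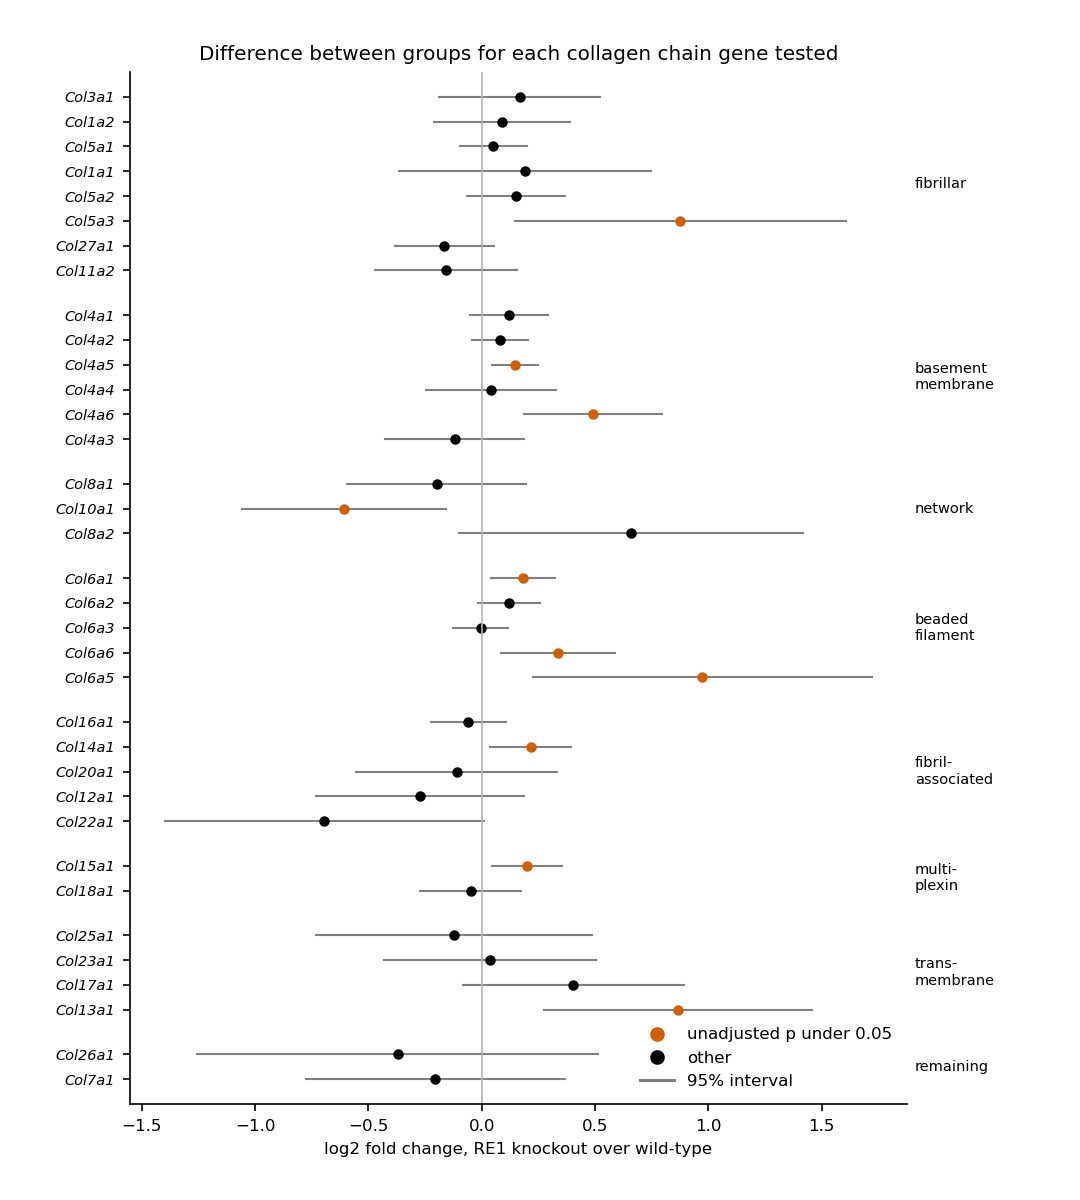
Log2 fold change, RE1 knockout over wild-type, of each of the 35 tested collagen chain genes with its 95% interval from edgeR, grouped by collagen type. Coloured points have an unadjusted p under 0.05, and none had an adjusted p under 0.05. The 9 coloured points to the right of 0 include Col5a3, Col6a5 and Col13a1, at 0.88, 0.97 and 0.87, and the 1 to the left is Col10a1, at −0.61.

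Among the fibrillar chains 6 of 8 tested were positive, with a median log2 fold change of 0.12. Col3a1, whose fibrils are abundant in distensible tissues, gave 5471, 8623, 5863 and 6844 normalized counts in the wild-type libraries 1 to 4 and 7733, 7898, 7525 and 6980 in the knockouts. Wild-type replicate 2 was the highest of all 8 libraries and wild-type replicates 1 and 3 the lowest, so the knockouts lay inside the wild-type range. This gave a log2 fold change of 0.17 (standard error 0.15, adjusted p = 0.698 in edgeR), and the 95% interval of the difference reached from −12.1% to 43.7%. Col1a2 gave 3030, 4493, 3288 and 3515 in wild-type mice and 3923, 3771, 4107 and 3447 in knockout mice, again with wild-type replicate 2 on top and replicate 1 at the bottom. Its log2 fold change was 0.09 (standard error 0.13, adjusted p = 0.833 in edgeR). These values moved with single wild-type libraries. Without replicate 1 they were 0.08 for Col3a1 and 0.02 for Col1a2, and without replicate 2 they were 0.31 and 0.22, with edgeR adjusted p-values of 0.0871 and 0.122. Col1a1, the partner that supplies most chains of the type I trimer, was chosen for description after its values were seen. It gave 857, 1343, 816 and 1357 in wild-type mice and 1354, 1282, 1412 and 958 in knockout mice. Wild-type replicates 1 and 3 and knockout replicate 4 were low and the other 5 libraries were alike, and the log2 fold change of 0.19 had a 95% interval from −0.36 to 0.75. It ran from 0.08 without wild-type replicate 3 to 0.31 without wild-type replicate 4, and was 0.09 without replicate 1, 0.31 without replicate 2 and 0.30 without knockout replicate 4.

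Col5a2, a type V chain that takes part in starting and sizing type I fibrils, gave 805, 1120, 818 and 962 in wild-type mice and 982, 1104, 1024 and 997 in knockout mice. The difference was a log2 fold change of 0.15 (standard error 0.10, adjusted p = 0.566 in edgeR). It was 0.08 without wild-type replicate 1, 0.10 without replicate 3 and 0.26 without replicate 2 (adjusted p = 0.0824 in edgeR). Col5a2 and Col3a1 are neighbours on chromosome 1, with starts 191744 bases apart on opposite strands. In both genes wild-type replicate 2 was the highest and wild-type replicate 1 the lowest of the 8 libraries. The same held for Col1a2 on chromosome 6, so these extremes were not particular to the neighbours. Col27a1, a fibrillar chain best known from cartilage, gave 171, 154, 149 and 158 in wild-type mice and 151, 132, 157 and 130 in knockout mice, with overlapping groups and a log2 fold change of −0.17 (standard error 0.10, adjusted p = 0.534 in edgeR).

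The largest difference among the fibrillar chains was that of Col5a3, a type V chain of narrower expression than its partners, which was chosen for description after its values were seen. Col5a3 (ENSMUSG00000004098) lies on chromosome 9, 20770050 to 20815067 on GRCm38, minus strand. Its normalized counts were 350, 473, 464 and 915 in the wild-type libraries 1 to 4 and 998, 1039, 894 and 1083 in knockout replicates 1 to 4. Wild-type replicates 1 to 3 lay far below all knockouts, and wild-type replicate 4 lay within the knockout range. In log2 fold change this was 0.88 (standard error 0.30), or 1.84-fold, with an edgeR adjusted p of 0.307. Without wild-type replicate 4 it was 1.24, or 2.36-fold, with an edgeR adjusted p of 7.74e-05, and with limma-voom on all libraries it was 0.99 with an adjusted p of 0.0291. Whether Col5a3 was called thus depended on that library and on the test used. The variation between replicates, as edgeR's biological coefficient of variation, was 20.1% for Col5a3 and 15.7% for Col1a1, against a median of 7.55% over all genes tested.

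Mesothelial markers, genes of the cells that cover the heart's surface, also varied across the libraries. Their summed normalized counts were 290, 185, 369 and 575 in the wild-type libraries 1 to 4 and 1038, 1010, 621 and 382 in knockout replicates 1 to 4, and none of the 11 markers was at 0 in all libraries. All 9 markers that could be tested were positive, with a median log2 fold change of 1.70. With edgeR 0 passed the threshold and 3 had an unadjusted p under 0.05, against 13.0% of all genes tested. Wild-type replicate 4 was the highest of its group both in this sum and in Col5a3. Knockout replicate 4 had the highest Col5a3 of all libraries beside the lowest mesothelial sum of its group. The part of mesothelial RNA in these differences was not tested. In bulk tissue, fewer cells of a type and less RNA per cell cannot be told apart.

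**Figure D3:**
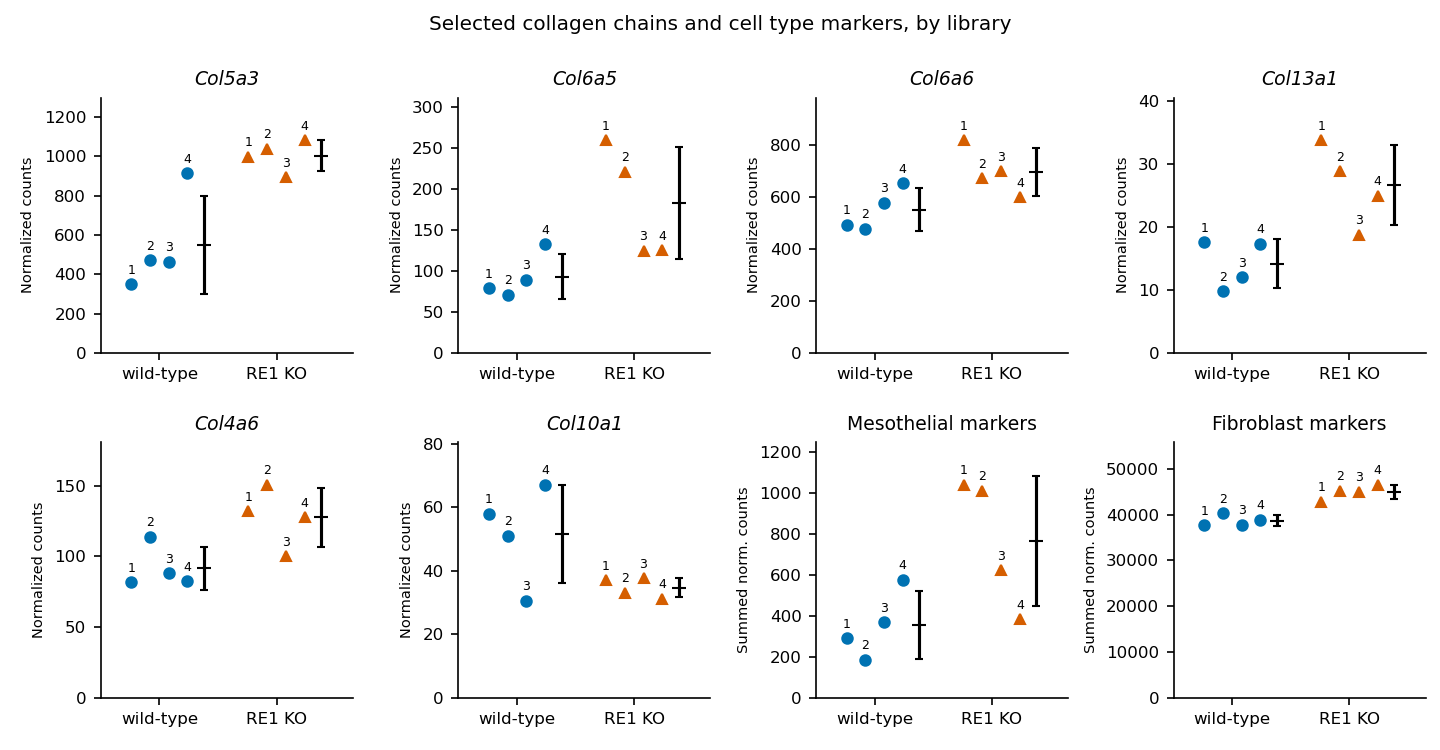
Normalized counts of 6 collagen chain genes, and summed normalized counts of the mesothelial and the fibroblast marker lists, in each library. Numbers are replicates, circles wild-type and triangles RE1 knockout, and bars show mean ± SD of 4 libraries. In Col5a3 the wild-type replicate 4, at 915, stands with the knockouts, which lie between 894 and 1083.

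None of the 6 basement membrane chains passed the threshold, and 5 of them were positive, with a median log2 fold change of 0.10. Col4a1 (ENSMUSG00000031502) lies on chromosome 8, 11198423 to 11312826 on GRCm38, minus strand. It gave 11326, 14111, 12826 and 15003 normalized counts in wild-type mice and 13995, 15309, 13757 and 14878 in knockout mice. Only wild-type replicates 1 and 3 lay below all knockouts. This gave a log2 fold change of 0.12 (standard error 0.08, adjusted p = 0.562 in edgeR), and the 95% interval of the difference reached from −3.41% to 22.4%. Col4a2 gave 6904, 8228, 7538 and 8608 in wild-type mice and 8017, 8620, 7982 and 8444 in knockout mice, with the libraries of each group in the same order as for Col4a1. Its log2 fold change was 0.08 (standard error 0.06, adjusted p = 0.613 in edgeR), with an interval from −3.05% to 15.2%. Without wild-type replicate 1 the values were 0.05 for Col4a1 and 0.02 for Col4a2, and without replicate 4 they were 0.18 and 0.13. These 2 genes kept a steady proportion: the per-length ratio of Col4a1 to Col4a2 lay between 1.60 and 1.73 in all 8 libraries. For Col5a1 to Col5a2, on different chromosomes, the ratio lay between 1.45 and 1.72. For Col4a4 to Col4a3, which also start next to each other, it ran from 1.76 to 2.74. The part of the start regions in these ratios was not tested.

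The X-linked pair of type IV chains, expressed at different levels, had the smaller p-values. Col4a5, a chain of a further type IV network, gave 1407, 1573, 1424 and 1432 in wild-type mice and 1557, 1591, 1640 and 1674 in knockout mice. Wild-type replicate 2 was the only wild-type library that reached the knockout range. As a log2 fold change this came to 0.15 (standard error 0.05), or 1.11-fold, with an edgeR adjusted p of 0.188. Col4a6, which starts on the opposite strand, gave 81.6, 114, 87.8 and 82.3 in wild-type mice and 132, 151, 100 and 128 in knockout mice, with wild-type replicate 2 above knockout replicate 3. Col4a6 (ENSMUSG00000031273) lies on chromosome X, 141165403 to 141474076 on GRCm38, minus strand. It had the smallest p of all members, with a log2 fold change of 0.49 (standard error 0.15), or 1.41-fold, and an edgeR adjusted p of 0.130. Per length Col4a5 was 14.1 to 17.7 times the level of Col4a6 in wild-type mice and 10.7 to 16.6 times in knockout libraries, and these ranges overlap.

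Col4a3 and Col4a4, the third pair, were chosen for description after their values were seen. In wild-type replicate 2 Col4a3 reached 194 and Col4a4 reached 434 normalized counts, while the other 7 libraries lay between 113 and 144 and between 276 and 367. Both genes of the pair were highest in the same library. That library was also the highest for members outside the pair, among them Col3a1, Col1a2, Col5a2 and Col8a1. Their log2 fold changes were −0.12 (standard error 0.15) and 0.04 (standard error 0.13), with edgeR adjusted p-values of 0.788 and 0.934. An antisense gene overlaps 5.65% of the exon length of Col4a3, and since no source used here gives the strand setting behind the counts, its reads cannot be told apart.

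**Figure D4:**
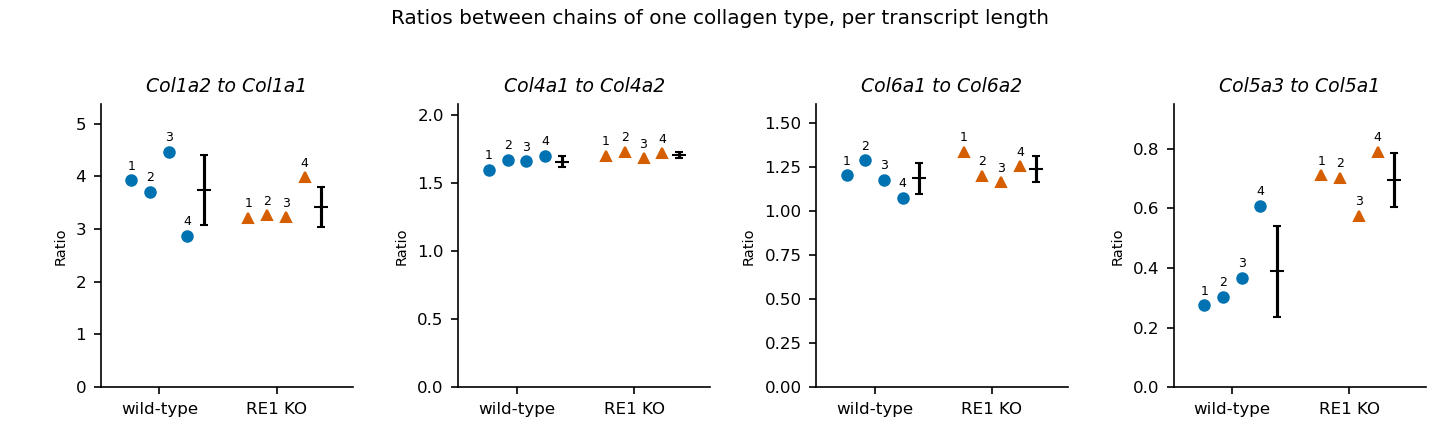
Per-length ratio between chains of one collagen type in each library, for types I, IV, VI and V. Numbers are replicates, circles wild-type and triangles RE1 knockout, and bars show mean ± SD of 4 libraries. The Col4a1 to Col4a2 ratio stays between 1.60 and 1.73, whereas Col5a3 to Col5a1 runs from 0.274 to 0.791.

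Ratios between chains of the same or a related type overlapped between the groups for all 12 pairs examined. Type I collagen is known as a trimer with more α1 than α2 chains. At the RNA level the per-length ratio of Col1a2 to Col1a1 was 2.87 to 4.47 in wild-type mice and 3.21 to 3.99 in knockout libraries. The ratio of Col6a1 to Col6a2 was 1.08 to 1.29 and 1.16 to 1.34. The size of these ratios depends on the length used, so they do not settle the proportions of the chains. Per kb of transcript the means over all libraries were 691 for Col1a2 and 198 for Col1a1, and per kb of all annotated exons 298 and 179. For Col6a1 and Col6a2 they were 529 and 437 per kb of transcript, and 495 and 207 per kb of exons. The ratio of Col5a3 to Col5a1 was 0.274, 0.304, 0.368 and 0.610 in the wild-type libraries 1 to 4 and 0.712, 0.704, 0.575 and 0.791 in the knockouts. As in Col5a3 itself, wild-type replicate 4 reached into the knockout range.

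Network chains form hexagonal lattices in specialised matrices. Col8a1, a short chain made by vascular and other mesenchymal cells, was the main one in these ventricles and gave 806, 893, 689 and 550 normalized counts in wild-type mice and 530, 676, 605 and 743 in knockout mice. The groups overlapped, and the log2 fold change was −0.20 (standard error 0.17, adjusted p = 0.679 in edgeR). Col10a1, best known from hypertrophic cartilage, gave 58.0, 51.0, 30.6 and 67.1 in wild-type mice and 37.0, 33.0, 37.6 and 31.2 in knockout mice. Wild-type replicate 3 was the lowest library of all, and the other 3 wild-type libraries lay above all knockouts. It was the only member with a negative difference at an unadjusted p under 0.05, with a log2 fold change of −0.61 (standard error 0.22) and an edgeR adjusted p of 0.223. Col8a2 was low, at 5.41 to 16.8 normalized counts in wild-type mice and 12.5 to 19.3 in knockout libraries.

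The beaded filament chains of type VI collagen link cells to the fibrils around them. Of the 5 tested, 0 passed the threshold. An unadjusted p under 0.05 in edgeR was reached by 3 of these 5, against 13.0% of all genes tested. Col6a1 gave 1805, 2342, 1931 and 2053 normalized counts in wild-type mice and 2450, 2297, 2243 and 2240 in knockout mice. Wild-type replicate 2 lay within the knockout range and the other wild-type libraries below it. The log2 fold change was 0.18 (standard error 0.07, adjusted p = 0.252 in edgeR), and without wild-type replicate 2 it was 0.26 with an edgeR adjusted p of 0.0267. Col6a2, its neighbour on chromosome 10 on the same strand, gave 1444, 1750, 1579 and 1838 in wild-type mice and 1764, 1844, 1857 and 1721 in knockout mice. The groups overlapped, with a log2 fold change of 0.12 (standard error 0.06, adjusted p = 0.454 in edgeR), or 0.06 without wild-type replicate 1. Col6a3, the third chain of the common trimer, had a log2 fold change of −0.0047 and a 95% interval from −0.13 to 0.12.

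Col6a5 and Col6a6 are chains that can take the place of Col6a3. Col6a6 gave 492, 477, 577 and 653 normalized counts in wild-type mice and 818, 671, 698 and 598 in knockout mice. Wild-type replicate 4 lay above knockout replicate 4 and the remaining wild-type libraries lay below all knockouts. In log2 fold change this was 0.34 (standard error 0.11, adjusted p = 0.237 in edgeR), and without wild-type replicate 4 it was 0.43 with an edgeR adjusted p of 0.0383. Col6a5, chosen for description after its values were seen, gave 78.6, 70.6, 89.2 and 132 in wild-type mice and 259, 221, 124 and 125 in knockout mice. Knockout replicates 1 and 2 stood high, and these 2 libraries also had the highest mesothelial sums. The log2 fold change of Col6a5 was the largest of all members, 0.97 (standard error 0.32) or 1.96-fold, with an edgeR adjusted p of 0.263. The exons of Col6a5 and Col6a6 shared 2.36% and 2.42% of their 100-base stretches, so a small part of their reads could be assigned to either.

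The fibril-associated chains, which sit on the surface of fibrils, had a negative sign in 4 of the 5 tested. Col16a1 and Col14a1 were the most abundant of them. Per kb they stood at 70.5 and 58.1 in the wild-type group and were close in the knockouts, at 67.8 and 67.4. Col16a1 was at 358, 402, 342 and 367 normalized counts in wild-type mice and 367, 371, 365 and 309 in knockout mice, with a log2 fold change of −0.06 (standard error 0.08, adjusted p = 0.806 in edgeR). Col12a1 gave 50.3, 31.4, 70.5 and 40.1 in wild-type mice and 38.6, 40.6, 38.6 and 38.5 in knockout mice, with the knockouts inside the wild-type range (edgeR adjusted p = 0.646). Col22a1, best known from tissue junctions such as those of muscle and tendon, was low, at 15.3, 9.81, 18.6 and 14.1 in wild-type mice and 6.44, 7.57, 11.5 and 9.35 in knockout mice. The difference was a log2 fold change of −0.69 (standard error 0.34, adjusted p = 0.390 in edgeR). Col14a1 was the exception in sign, at 0.22 (standard error 0.09, adjusted p = 0.279 in edgeR), with 305 to 395 in wild-type mice and 364 to 403 in knockout libraries.

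Multiplexins are collagens of basement membrane zones that carry long interrupted helices. Col15a1 gave 2215, 2329, 2219 and 2585 normalized counts in wild-type mice and 2931, 2575, 2891 and 2348 in knockout mice. Knockout replicates 1 and 3 were the highest libraries and knockout replicates 2 and 4, the libraries low in mitochondrial rRNA, lay within the wild-type range. As a log2 fold change this came to 0.20 (standard error 0.07, adjusted p = 0.251 in edgeR). Col18a1, the source of endostatin, had a log2 fold change of −0.05 (standard error 0.11, adjusted p = 0.897 in edgeR).

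Transmembrane collagens are held in the cell membrane. Col13a1, which acts at neuromuscular junctions and cell contacts, gave 17.5, 9.81, 12.0 and 17.3 normalized counts in wild-type mice and 33.8, 28.9, 18.8 and 24.9 in knockout mice. Col13a1 (ENSMUSG00000058806) lies on chromosome 10, 61838236 to 61979108 on GRCm38, minus strand. It was the single member whose groups did not overlap. The log2 fold change was 0.87 (standard error 0.28), or 1.82-fold, with an edgeR adjusted p of 0.171 at a total of 163 reads over all libraries. Col25a1, of this type the highest per kb of principal transcript and the lowest per kb of all annotated exons, gave 36.6, 22.6, 22.6 and 21.7 in wild-type mice and 30.6, 13.1, 28.2 and 30.1 in knockout mice (log2 fold change −0.12, edgeR adjusted p = 0.908). One library of each group stood apart, wild-type replicate 1 above and knockout replicate 2 below. Of the remaining types, Col26a1 gave 14.5, 2.94, 12.0 and 11.9 in wild-type mice and 11.3, 8.26, 6.26 and 7.28 in knockout mice (log2 fold change −0.37, edgeR adjusted p = 0.767). Members not described in full ranged from a log2 fold change of −0.20 for Col7a1, which forms anchoring fibrils, to 0.66 for Col8a2.

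**Figure D5:**
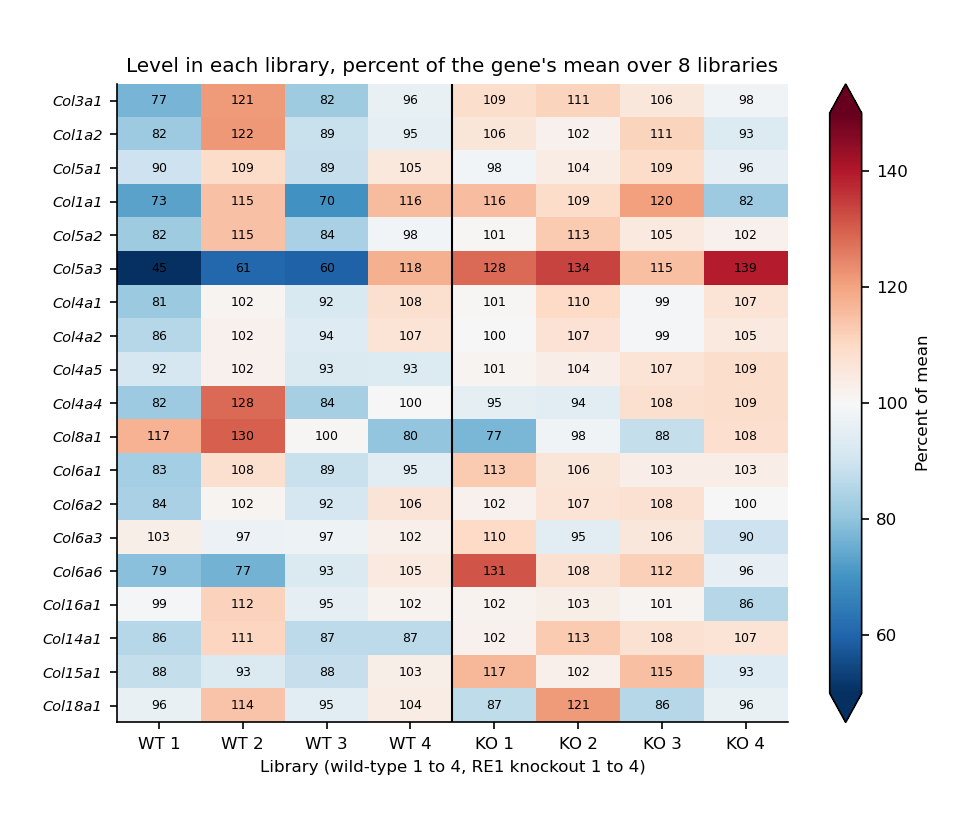
Level of the 19 collagen chain genes with a raw total of at least 2000, in each library, as a percent of the gene's mean over the 8 libraries. Colours run from blue, below 100, to red, above 100, and are saturated outside 50 to 150. Wild-type replicate 2 is above 100 for most fibrillar chains, with Col1a2 at 122, and Col5a3 is at 45 to 61 in wild-type replicates 1 to 3 alone.

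Libraries of one group differed in their fibrillar chains. Among the 8 tested fibrillar chains, wild-type replicate 2 was the highest of its group in 4 and the lowest in 0, with a median of 112% of each gene's mean, while wild-type replicate 1 was the lowest in 5, with a median of 82.2%. In the knockout group replicate 4 was the lowest in 5 of 8, with a median of 94.7%. Over all 35 tested members, knockout replicate 4 was the lowest of its group in 16 and wild-type replicate 1 in 14.

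Markers of the cells that make collagen were compared in the same libraries. Cardiac fibroblast markers summed to 37739 to 40353 normalized counts in wild-type mice and 42820 to 46573 in knockout libraries, without overlap. Of 16 tested, 14 were positive and 2 rose, Gsn (0.26, edgeR adjusted p = 0.00741) and Pdgfra (0.41, edgeR adjusted p = 0.0130), with a median of 0.21, where 0.375% of all genes tested rose. None of the 10 tested markers of activated fibroblasts passed the threshold with edgeR, and the median was −0.03. An unadjusted p under 0.05 was reached by 2, against 13.0% of all genes tested. These were Comp (−0.76) and Meox1 (−0.30), both lower in the knockouts. Endothelial markers summed to 30420 to 32411 in wild-type mice and 27270 to 30716 in knockout libraries, and 3 of 13 fell, Cav1, Robo4 and Erg, where 0.689% of all genes tested did. The part of these markers in the collagen values was not tested. No marker of these 3 lists was at 0 in all libraries.

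The genes that build, fold, cut, cross-link, bind and degrade collagens, or inhibit their breakdown, were read from 7 lists, with 69 genes tested. Of these 1 rose and 2 fell past the threshold, against 1.06% of all genes, and the median log2 fold change was 0.0018. Mmp14, a membrane-bound collagenase, rose from 183, 186, 160 and 236 normalized counts in wild-type to 307, 314, 319 and 331 in knockout mice. All knockouts lay above all wild-types and close together. In log2 fold change this was 0.73 (standard error 0.10), or 1.66-fold, with an edgeR adjusted p of 0.00169.

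Plod1, a lysyl hydroxylase of collagen helices, fell from 2247, 2214, 2146 and 2272 in wild-type to 2019, 1768, 1791 and 1826 in knockout mice, without overlap. This gave a log2 fold change of −0.27 (standard error 0.05, adjusted p = 0.0113 in edgeR). The call ended without wild-type replicate 1 (adjusted p = 0.0517, edgeR) or without knockout replicate 2 (adjusted p = 0.0678, edgeR). Plod1 lies on chromosome 4 from 147909753 to 147936767, 49.0 kb from Nppb. Tnxb, a tenascin that binds fibrils, fell, with a log2 fold change of −0.17 (standard error 0.04, adjusted p = 0.0429 in edgeR), from 6829 to 7098 in wild-type to 6005 to 6370 in knockout libraries. Its call held in 1 of the 8 fits that leave out a library, the one without wild-type replicate 2, with edgeR adjusted p-values from 0.0414 to 0.138.

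The counts at an unadjusted p under 0.05 that follow stand against 13.0% of all genes tested, and each list is small. By list, of the 14 tested hydroxylases and glycosyltransferases only Plod1 passed, 3 were at an unadjusted p under 0.05 and the median was −0.02. Of 9 tested chaperone and secretion genes 1 was at that level, Sec23a, a coat protein of secretory vesicles (0.13, edgeR adjusted p = 0.237). Of 8 procollagen processing genes 2 were, led by Tll2, a protease related to Bmp1, with 27.1 to 54.6 normalized counts in wild-type mice and 11.3 to 26.1 in knockout libraries (−0.99, edgeR adjusted p = 0.0780). Of 5 lysyl oxidases, which cross-link collagen, 2 were, led by Loxl1, with 428 to 525 in wild-type mice and 570 to 612 in knockout libraries (0.28, edgeR adjusted p = 0.0560). Among 12 fibril-binding proteoglycans and glycoproteins, Tnxb passed and 5 were at an unadjusted p under 0.05. Among 12 receptors and uptake genes 2 were, led by Antxr2, which takes up type VI collagen (0.22, edgeR adjusted p = 0.0569). Without wild-type replicate 4, Tll2 and Loxl1 passed the threshold (adjusted p = 0.0301 and 0.0233 in edgeR). Antxr2 passed it without wild-type replicate 2 or knockout replicate 4 (adjusted p = 0.0297 and 0.0371 in edgeR). DESeq2 on all libraries called Loxl1 and Antxr2 as well. Among 9 genes of breakdown and its inhibition Mmp14 passed, 4 were at that level and the median was −0.21. At that level Mmp14 and Mmp2 were higher, and Mmp13 and Timp3 lower. The list mixes proteases with the protease inhibitors Timp1, Timp2 and Timp3, so its median gives no direction for breakdown.

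Of the 40 members, 5 lie on chromosome 4 with Nppb. The nearest was Col16a1, 17.9 Mb away, followed by Col8a2 at 21.7 Mb and Col9a2 at 26.9 Mb, and Col27a1 and Col15a1 were 84.7 Mb and 101 Mb away. Col9a2 was too low to test, and the log2 fold changes of the others are given with their types above.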

How the data were processed

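RNA-seq was carried out on left ventricle of 4 wild-type and 4 RE1 knockout FVB mice. Per the labels' protocols, stranded total RNA libraries from 900 ng of RNA were sequenced with an Illumina HiSeq 2500 (paired ends, 125 bases). STAR, DESeq2 and mm10 are listed in the submitters' processing notes. No source used here names the counting program or its strand setting. The authors deposited raw counts per gene, and normalized counts, a linear signal equal to the raw counts divided by 1 size factor per library. The authors' deposited table of the group comparison holds p-values, adjusted p-values and a log2 fold change for each gene. Its fold change is wild-type over knockout.

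Raw counts were tested with edgeR 4.0.16 (R 4.3.3) by the quasi-likelihood F test with TMM, filterByExpr and robust moderation, a setting chosen after the data were seen. The two-sided p-values were adjusted by Benjamini-Hochberg across the 16551 genes in the test, and the threshold was 0.05. On simulated counts for 16354 genes the RE1 knockout against wild-type step recovered 44% of genes changed 1.25-fold, 88% of those changed 1.5-fold, 88% of those changed 2-fold and 100% of those changed 4-fold. Of 178 calls 18 were false, a share above the threshold. The changed genes were drawn from all tested genes above a minimum mean count, so these shares are not the recovery for collagen chains. Some chains varied more between replicates than most genes. The biological coefficient of variation was 22.2% for Col6a5 and 20.1% for Col5a3, against a median of 7.55%. Alternatives were RLE size factors, other filters, each library left out, the replicate number as a block, DESeq2 1.42.0, limma-voom (limma 3.58.1), a threshold of 0.1 and no robust moderation. Library pairs within a group differed by a chi-square of 3.14 to 16.1 per gene, so none was a duplicate.

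Coordinates are from GENCODE M21 (GRCm38) and promoter windows from RefSeq (GRCm38.p6). Members, gene lists and tests were chosen with earlier results of these data known. Named were the 6 chains highest per length, the 4 of smallest p in each direction, the highest of each type, the neighbouring pairs Col4a1 and Col4a2, Col6a1 and Col6a2, and Col3a1 and Col5a2, and per processing list the genes past the threshold or else the one of smallest p.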

Additional observations from a re-analysis of the deposited data

Results flagged for a closer look

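In groups of 4 libraries, 11 of 128 tested groups of values had 1 library far from the other 3, where chance gives about 1 in 20 for independent groups. These groups share genes and libraries, so no excess over chance can be read from the count. Wild-type replicate 2 stood above its group in Col4a5, at 1573 normalized counts against 1407 to 1432. It also stood above it in Col14a1, at 395 against 305 to 310, and in the share of the per-length collagen level held by Col3a1, at 17.1% against 13.8% to 14.1%. Knockout replicate 4 stood below its group in Col16a1, at 309 normalized counts against 365 to 371, and in the summed fibrillar chains, at 15575 against 17181 to 17366. In the same library the per-length ratio of Col1a2 to Col1a1 was high, at 3.99 against 3.21 to 3.26.

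Knockout replicate 2 was low in Col25a1, at 13.1 normalized counts against 28.2 to 30.6. It was flagged above its group in Col12a1, at 40.6 against 38.5 to 38.6. That gap is narrow for a gene with 24, 59, 37 and 37 raw reads in knockout replicates 1 to 4. Knockout replicate 2 was high in the percent of all counts in collagen chain genes, at 0.215% against 0.198% to 0.200%. Wild-type replicate 1 was high in Col25a1, at 36.6 against 21.7 to 22.6, and wild-type replicate 4 in Col20a1, at 49.8 against 31.9 to 34.3. Their causes were not tested.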

How the results depend on the processing

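The count of collagen chain genes past the threshold was 0 with RLE size factors, the stricter filter, DESeq2, the threshold of 0.1 and no robust moderation. It was 4 with no low-count filter and 1 with limma-voom, and 0 to 2 with each library left out. Robust moderation, part of the main setting, and the fit without it were both chosen after seeing the data. Without robust moderation 130 genes passed in all. Over all genes the count was 176, and 643 with no low-count filter, 296 with DESeq2, 346 at the threshold of 0.1 and 36 to 259 with each library left out (50 without wild-type replicate 1, and 82, 36 and 104 without knockout replicates 1, 2 and 3). For the processing and receptor genes it was 3, and 11 with no low-count filter, 5 with DESeq2, 8 at the threshold of 0.1 and 1 to 6 with each library left out (6 without wild-type replicate 2, 1 without knockout replicate 2 and 1 without wild-type replicate 1). The causes were not tested. The median log2 fold change of the members lay between 0.02 and 0.15 in every setting run.

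With the replicate number as a block, 0 collagen chain genes, 186 genes in all and 2 processing and receptor genes passed, Tnxb being lost (adjusted p = 0.0715, edgeR), and the median was 0.08. The numbers did not pair the samples: same-numbered libraries correlated at −0.01, 0.02, −0.08 and −0.06. The call on Tnxb was also lost with no robust moderation (adjusted p = 0.0598, edgeR).

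Of 473 alternative values for 32 single genes, 439 kept direction and side of the threshold, 11 fell short of it, 17 passed it and 6 changed sign. With each library left out, the log2 fold change ran from −0.0900 to 0.000686 for Col16a1 (sign changed without knockout replicate 4), from −0.239 to 0.157 for Col25a1 (changed without wild-type replicate 1, at 0.132, or knockout replicate 2), from −0.193 to 0.0667 for Col4a3 (changed without wild-type replicate 2) and from −0.0477 to 0.200 for Col4a4 (changed without wild-type replicate 1, or 3, at −0.0216). Intervals were wide for some chains of low counts, from −1.40 to 0.0084 on the log2 scale for Col22a1 and from −1.26 to 0.52 for Col26a1.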
